A study of Mus musculus with 17 samples.

Results

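The collapsin response mediator proteins (CRMPs) are encoded in the mouse by 5 genes, Crmp1, Dpysl2, Dpysl3, Dpysl4 and Dpysl5. These 5 genes were taken by symbol from a table of 22253 genes, and all were found in it. The family was singled out with the levels of these libraries already known, so that the levels of its members and their differences between groups are given below as a description, with no test. The table held counts for 17 libraries of retinal pigment epithelium (RPE) from Serpine3GFP/+ mice, which carry 1 allele with a GFP reporter inserted after the start codon in exon 2 of Serpine3. All mice were 2 months old, and each library was a pool of cells picked by hand, 10 to 15 per the labels, while the study's methods give a lower range. There were 6 libraries of peripheral GFP+ RPE (labelled GFP+), 5 of peripheral GFP- RPE (ctrl periphery) and 6 of central GFP- RPE (ctrl center). They came from 7 numbered mice, of which 5 gave all 3 groups, and the number called mouse 1 here stands for 2 animal numbers in the labels. All groups share the reporter allele, and no wild-type mice were included.

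CRMPs are cytosolic proteins related in sequence to dihydropyrimidinase, an enzyme of pyrimidine breakdown, but they are best known as regulators of the cytoskeleton in growing axons. DPYSL2 (CRMP2) binds tubulin and promotes microtubule assembly. In neurons, it acts downstream of semaphorin 3A, which signals through neuropilins and plexins, and it is released from tubulin when kinases such as CDK5 and GSK3B phosphorylate it. The RPE is a pigmented epithelium and does not extend axons.

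Total counts ranged from 9896118 to 22467079 per library, so that a count of 0 allows up to 0.116 to 0.554 CPM (the count relative to the scaled total of its library) by counting error alone. Serpine3 itself had 107 to 576 counts in the GFP+ libraries, 0 to 5 in the peripheral GFP- libraries and 0 in every central library. Summed RPE markers lay between 48400 and 99200 CPM in all libraries, and Best1 was above the floor in no library of any group. The central libraries of mice 4, 5 and 7 had 5392 to 6681 genes at 10 or more counts, against 7966 or more in every other library. That of mouse 5 had the fewest genes, the highest mitochondrial share (47.3%) and the highest Dpysl2 level. The central mean of Dpysl2 in CPM and the fold changes against central RPE are given with and without that library. Other Dpysl2 values, among them the level per length, spans, r values and means on other totals, include it unless stated.

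Dpysl2 was the member with the highest level per length in 17 of 17 libraries. The gene lies on chromosome 14 of GRCm38, from 66802864 to 66868688 on the minus strand, and has 1 annotated transcript of 4520 bases in 14 exons. No exon of it overlaps another gene, and 0 of its 4471 distinct windows of 50 bases occur in a transcript of another gene. Per kilobase of transcript, GFP+ RPE had a mean level of 16.6 ± 10.5 CPM (SD, n = 6). The level was 34.1 ± 8.82 CPM (SD, n = 5) for the GFP- cells of the periphery and 71.6 ± 72.6 CPM (SD, n = 6) for those of the center. It made up 77.8%, 87.4% and 87.2% of the summed length-scaled level of the family in these groups.

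In peripheral GFP+ RPE, Dpysl2 was at 38.8 CPM in mouse 1, 29.0 in mouse 2, 68.2 in mouse 3, 72.1 in mouse 4, 163 in mouse 5 and 80.3 in mouse 7. In peripheral GFP- RPE, it was at 94.9 CPM in mouse 1, 153 in mouse 2, 162 in mouse 4, 207 in mouse 5 and 154 in mouse 7. In central RPE, it was at 120 CPM in mouse 1, 104 in mouse 2, 194 in mouse 4, 970 in mouse 5, 204 in mouse 6 and 348 in mouse 7. The GFP+ libraries were the low ones: 5 of 6 lay below every peripheral GFP- library and below every central library, and the library of mouse 5 overlapped both groups. The peripheral GFP- and central groups overlapped, and their order does not exceed their spread. The central libraries with more genes, of mice 1, 2 and 6, all lay within the range of the peripheral GFP- libraries, and those of mice 1 and 2 within that of the GFP+ libraries.

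**Figure D1:**
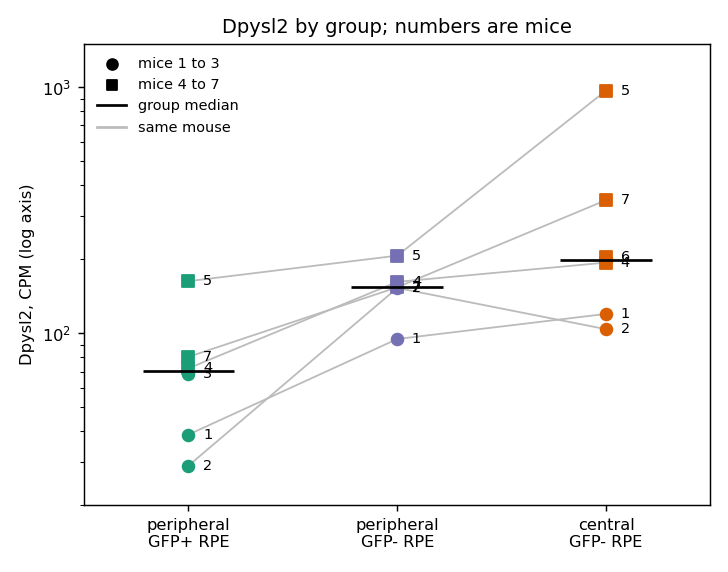
Dpysl2 level in CPM (log axis) in each library, by group. Numbers are mice, grey lines join libraries of the same mouse, circles are mice 1 to 3, squares are mice 4 to 7, and black bars are group medians. In all 5 mice with 3 libraries, the GFP+ library is the lowest, and the central library of mouse 5 lies highest at 970 CPM.

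Dpysl2 averaged 75.2 ± 47.4 CPM (SD, n = 6) over the GFP+ libraries. Its average was 154 ± 39.8 CPM (SD, n = 5) over the peripheral GFP- libraries and 324 ± 328 CPM (SD, n = 6) over the central ones. Without the central library of mouse 5, the central mean was 194 ± 96.8 CPM (SD, n = 5), and the ratio of central to GFP+ means went from 4.3 to 2.58. The fitted log2 fold change of GFP+ RPE was -2.28 (SE 0.57) against central RPE and -1.42 without that library. Against peripheral GFP- RPE it was -1.03 (SE 0.37). Peripheral GFP- RPE stood at -1.20 (SE 0.53) against central RPE, or -0.33 without the central library of mouse 5.

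Within the 5 mice that gave all groups, the GFP+ library had the lowest Dpysl2 level in 5 of 5. The ratio of the central to the GFP+ library ranged from 2.7 to 5.96, with a median of 3.58. The ratio of the peripheral GFP- to the GFP+ library ranged from 1.27 to 5.25, with a median of 2.25. Central exceeded peripheral GFP- RPE in 4 of these mice. The animal numbers fall into separate runs, and the order of the group medians differed between them. Mice 1 to 3 had medians of 38.8 CPM for GFP+ (n = 3), 124 for peripheral GFP- (n = 2) and 112 for central RPE (n = 2). For mice 4 to 7 the medians were 80.3 (n = 3), 162 (n = 3) and 276 CPM (n = 4) in that order.

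Dpysl3 (CRMP4) and Dpysl4 (CRMP3), family members that also act on the cytoskeleton of neurons, were low and scattered. Dpysl3 was at 0.352 to 30.4 CPM in GFP+ RPE, 0.635 to 24.7 in peripheral GFP- RPE and 0 to 41.8 in central RPE, with medians of 3.13, 13.3 and 5.72. Dpysl4 was at 0 to 13.2 CPM in GFP+ RPE, 1.56 to 16.9 in peripheral GFP- RPE and 0 to 36.6 in central RPE, with medians of 4.52, 5.34 and 4.37. The groups overlapped for both genes, and each was above the floor in 15 of 17 libraries. The fold changes of GFP+ against central RPE were -0.70 (SE 1.54) for Dpysl3 and -1.25 (SE 1.44) for Dpysl4, each smaller than its standard error. With the mouse as a block they were 0.55 and 0.34. Dpysl3 was 0.16 without the central library of mouse 1 and Dpysl4 -0.60 without that of mouse 7, so that no direction is given for either gene.

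Crmp1 (CRMP1) had 197 counts in the GFP+ library of mouse 2, 50 in the peripheral GFP- library of mouse 4, 19 in the central library of mouse 2 and 0 in all others. Dpysl5 (CRMP5) had at most 2 counts in any library. Neither passed the filter on low counts of the edgeR fit, so that 3 of the 5 members were tested by edgeR in each comparison. A gene was called at an adjusted p under 0.01 and a log2 fold change beyond 1 in either direction. With edgeR, 0 of the 3 members were called. The shares of all genes called were 0.0431% in GFP+ against central RPE, 0.0396% in GFP+ against peripheral GFP- RPE and 0% in peripheral GFP- against central RPE. With DESeq2, fitted without that filter, 0 of the 5 members were called, and these shares were 1.71%, 0.442% and 0.171%. Nothing is read from these counts, since the members were chosen with these levels known.

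**Figure D2:**
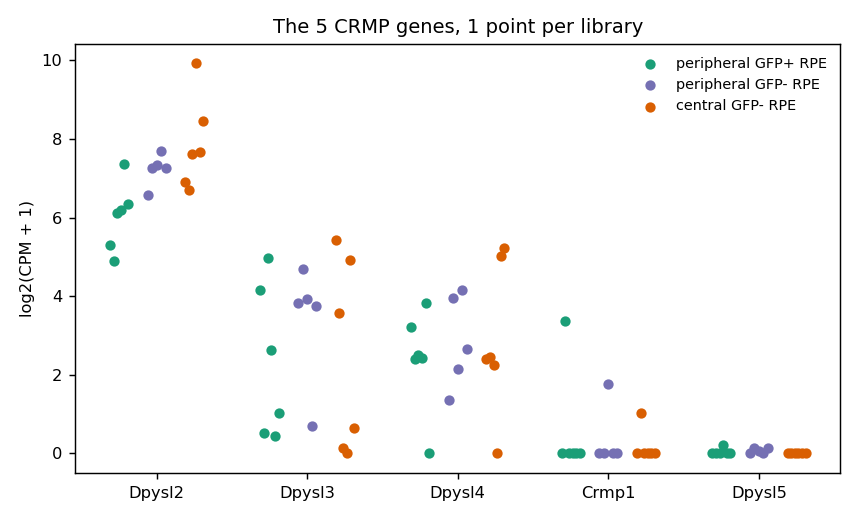
Level of the 5 CRMP genes as log2(CPM + 1), with 1 point per library coloured by group. Dpysl2 lies above the other members in each library, as it did per length, Dpysl3 and Dpysl4 scatter down to 0, and Crmp1 and Dpysl5 are at 0 in most libraries.

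Dpysl2 moved with a set of genes across the libraries. Of 10659 genes compared over the 17 libraries on log2(CPM + 1), the 5 with the highest Pearson r were Ahdc1 (0.979), Nipal1, a magnesium transporter gene (0.979), Rbm45, an RNA-binding protein gene (0.978), Npffr1, a neuropeptide FF receptor gene (0.977) and Igf2bp2, an mRNA-binding protein gene (0.976). In all, 136 genes (1.28%) reached r = 0.9, whereas the median number for a gene compared was 0 and the 99th percentile was 125. On plain library totals, 92 genes did, and the percentiles were not computed on that scale. These libraries share depth, scaling and composition, so that r is a description only. Dpysl3 (r = -0.312) and Dpysl4 (r = 0.0441) did not take part in this pattern.

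**Figure D3:**
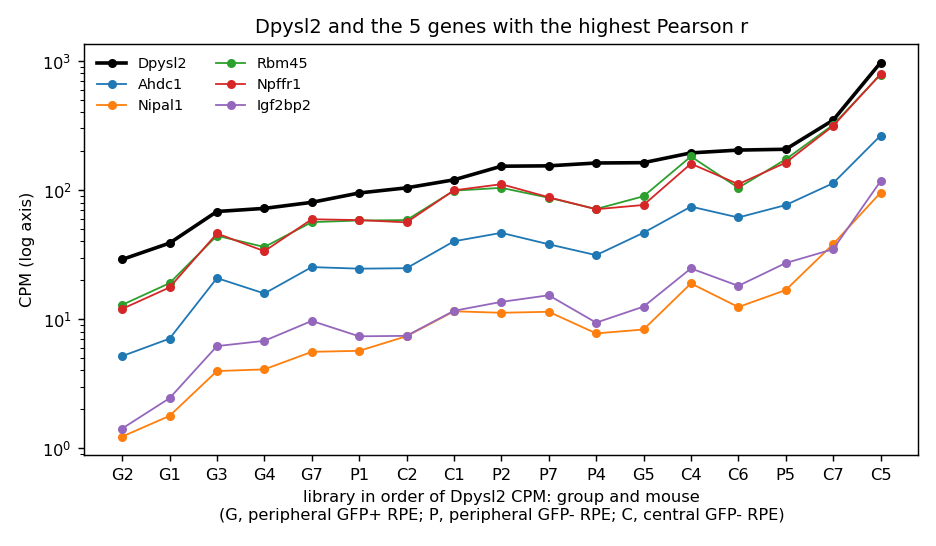
CPM (log axis) of Dpysl2 and the 5 genes with the highest Pearson r with it, in the 17 libraries ordered by Dpysl2. All 6 genes are lowest in the GFP+ library of mouse 2 and highest in the central library of mouse 5.

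The genes that moved with Dpysl2 included odorant and vomeronasal receptor genes, whose products detect odours and pheromones in sensory neurons of the nose. Of 81 such genes compared, 21 (25.9%) reached r = 0.9, as did 11 of 13 mitochondrial genes. This list of receptor genes, and Olfr157 in it, were chosen after their values were seen. All 1488 receptor genes of the table, taken by name, summed to 731 to 41100 CPM (r = 0.968 with Dpysl2). Olfr157 alone ranged from 388 to 24400 CPM. It was a large part of the sum in every library, so that the ratio to the sum leans on 1 gene. Dpysl2 spanned 33.4-fold over the libraries, whereas its level per 100 CPM of receptor genes spanned 2.46-fold, from 1.74 to 4.28. That ratio averaged 3.19 ± 0.68 (SD, n = 6) over the GFP+ libraries, 3.01 ± 0.827 (SD, n = 5) over the peripheral GFP- ones and 2.49 ± 0.703 (SD, n = 6) over the central ones, and the groups overlapped. On this scale the log2 difference of GFP+ from central RPE was 0.38, where that of the mean log2 CPM was -1.86, and the difference from peripheral GFP- RPE was 0.10, where it was -1.21. The sum was not limited to genes that moved with Dpysl2, but the class was taken up because some of its genes did. A narrow ratio can follow from that choice, and nothing is concluded from it on the group difference.

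Library measures moved with Dpysl2 too. The share of counts on mitochondrial genes was 0.71% to 17.2% in GFP+ RPE, 12.5% to 30.4% in peripheral GFP- RPE and 13.7% to 47.3% in central RPE, with r = 0.91 to Dpysl2 over the libraries and 0.824 on deviations from the group means. The scaling factor of the libraries had r = -0.872, but CPM is divided by this factor, so that a negative r is partly built in. The number of genes at 10 or more counts had r = -0.77. The part of these measures in the group differences of Dpysl2 was not tested. On library totals without mitochondrial genes, the group means of Dpysl2 were 96.6, 199 and 360 CPM, and on plain totals they were 86.0, 157 and 227 CPM. In pools of cells, a lower level per cell and fewer cells with the transcript cannot be told apart.

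**Figure D4:**
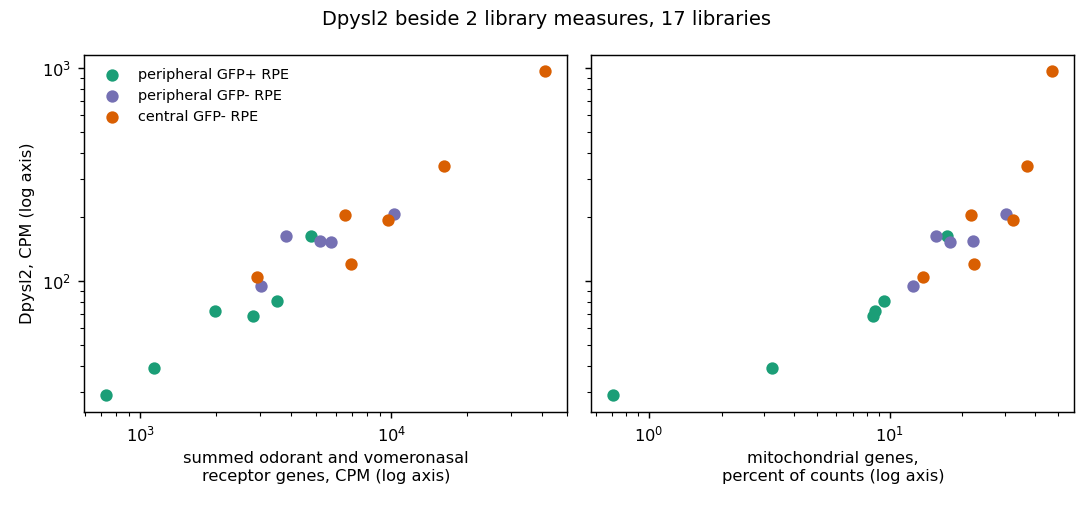
Dpysl2 in CPM against the summed odorant and vomeronasal receptor genes in CPM (left) and against the percent of counts on mitochondrial genes (right), all on log axes, with 1 point per library coloured by group. Both measures rise with Dpysl2 across and within the groups, from the GFP+ library of mouse 2 to the central library of mouse 5.

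Of the markers of other cells, those of inner retinal neurons, in which CRMPs are abundant, summed to 106 to 214 CPM in GFP+ RPE, 116 to 233 in peripheral GFP- RPE and 103 to 203 in central RPE. Of the 15 inner neuron markers, 5, 5 and 7 were above the floor in any library of these groups, and Snap25, a synaptic gene, was at 0 in both peripheral groups. Their sum had r = 0.349 to Dpysl2 over the 17 libraries and 0.635 on deviations from the group means. Mueller glia markers summed to 5870 to 11300, 2820 to 9840 and 2300 to 8350 CPM (r = -0.646), nearly all of it from Clu and Glul, and Gfap was at 0 in every group. The macrophage sum was carried by Csf1r, with means of 59.9, 122 and 90.7 CPM (r of the sum 0.601), and C1qa was at 0 throughout. Choroid stroma and fibroblast markers had r = 0.846 (0.801 on deviations from the group means), at sums of at most 2.03 CPM in any library. Endothelial markers reached at most 26 CPM. Markers of melanocytes other than RPE lay at 54.2 to 241 CPM (r = 0.0631) and those of ciliary and iris epithelium at 9.08 to 149 CPM (r = -0.0639). These r are descriptions over libraries that share depth and scaling, and the part of these cells in the Dpysl2 level was not tested.

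Genes around the CRMPs were taken from 7 lists of 82 genes in all, of which 39 were tested in GFP+ against central RPE. None was called by edgeR's quasi-likelihood test or by DESeq2 in any comparison. At an unadjusted p under 0.05, 7 of the 39 differed (1 higher and 6 lower in GFP+ RPE, 17.9%), against 5.8% of all genes tested (2.14% higher and 3.66% lower). The median log2 fold change of the lists was -0.12, and that of all genes was 0. In GFP+ against peripheral GFP- RPE, 3 of 40 (all lower, 7.5%) passed that limit against 5.58% of all genes (2.83% lower). In peripheral GFP- against central RPE it was 1 of 39 (lower, 2.56%) against 2.7% (1.67% lower).

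Among the ligands, Sema3c, a secreted class 3 semaphorin, was at 630 ± 119 CPM (SD, n = 6) in GFP+ RPE and 863 ± 119 (SD, n = 6) in central RPE, a log2 fold change of -0.52 (SE 0.20) with an edgeR adjusted p of 0.539. Sema6d, a transmembrane semaphorin, was at 17.9 to 40.8 CPM in GFP+ RPE and 0 to 8.91 in central RPE. These ranges do not overlap, which held for 0.862% of all genes in this direction, but the log2 fold change of 3.89 (SE 1.51) had an edgeR adjusted p of 0.571, and was 5.67 without the central library of mouse 2. Sema4b stood at -3.35 (SE 1.39) against central RPE, with an edgeR adjusted p of 0.694, but at -0.91 without the central library of mouse 5, which held 136 CPM against a central median of 5.45. Sema3f stood at 2.37 (SE 1.26). Sema3b (0.22, SE 0.41) and Sema4a (0.08, SE 0.56) had fold changes smaller than their standard errors. Sema3e and Sema6a were at or near 0 in GFP+ RPE. In central RPE, Sema3e had a mean of 0.103 CPM and Sema6a one of 6.64 CPM, with Sema6a at 0 in 4 of 6 libraries. Sema6a did not pass the edgeR filter. Its DESeq2 log2 fold change against central RPE was -9.73, with a DESeq2 adjusted p of 0.0258, above the limit of 0.01. Outside the named genes, Sema3a had means of 0.00795, 0.0429 and 0.0474 CPM in GFP+, peripheral GFP- and central RPE. Of the neuropilins, Nrp1 had means of 0, 0.0104 and 0 CPM in these groups, and Nrp2 19.5, 9.88 and 2.4 CPM.

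Of the plexins, the receptors of semaphorins, Plxnb2 was at 109 ± 36.7 CPM (SD, n = 6) in GFP+ RPE and 70.5 ± 23 (SD, n = 6) in central RPE, a log2 fold change of 0.56 (SE 0.37). Plxnb1 stood at 1.67 (SE 1.20), Plxna1 at -0.01 (SE 0.81) and Plxna2 at -0.98 (SE 1.35), or -0.15 without the central library of mouse 4. Plxna4, named after its values were seen because it moved with Dpysl2 (r = 0.967), was at 3.85 ± 2.71 CPM in GFP+ RPE and 26.5 ± 29.7 in central RPE, with a log2 fold change of -2.97 (SE 1.05) and an adjusted p of 0.442 by edgeR and 0.0112 by DESeq2. It stood at -2.02 once that of mouse 5 was left out of the central group. None of these plexin differences passed the limit of 0.01.

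Gsk3b, which encodes a kinase that phosphorylates CRMP2, had the smallest unadjusted p of the lists in GFP+ against central RPE (0.00173 by edgeR). It was at 100 to 201 CPM in GFP+ RPE, 190 to 385 in peripheral GFP- RPE and 180 to 1010 in central RPE, with r = 0.945 to Dpysl2 over the libraries. Its log2 fold change was -1.59 (SE 0.43) against central RPE, with an adjusted p of 0.131 by edgeR and 0.0853 by DESeq2, and -0.89 without the central library of mouse 5. Against peripheral GFP- RPE it was -0.87 (SE 0.26), with an edgeR adjusted p of 0.562. Cdk5, the priming kinase of CRMP2, stood at -1.36 (SE 0.64) against central RPE, with an edgeR adjusted p of 0.836, and at -0.76 without the central library of mouse 4. Rock1, which encodes a kinase that acts on the actin cytoskeleton, stood at 0.00 (SE 0.70) against central and -0.78 (SE 0.29) against peripheral GFP- RPE, the latter with an edgeR adjusted p of 0.723, and Rock2 at -0.74 (SE 0.72) against central RPE.

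Among cytoskeletal partners, Rac1 and Rhoa, small GTPases of the actin cytoskeleton, stood at -0.23 (SE 0.24) and 0.68 (SE 0.39) in GFP+ against central RPE. Rac1 was at 194 to 303 CPM in peripheral GFP- RPE and 308 to 342 in central RPE. Ranges lay apart in this direction for 0.115% of all genes, and the log2 fold change of -0.41 (SE 0.24) had an edgeR adjusted p of 1. Kif5b, a kinesin heavy chain gene, stood at -0.12 (SE 0.32) and Cyfip1, a partner of the WAVE complex, at -0.65 (SE 0.48). Of the pyrimidine enzymes, Dpys (dihydropyrimidinase) and Upb1 were at or near 0, and Dpyd stood at -0.35 (SE 1.39), or 0.56 without the central library of mouse 4.

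Among growth and microtubule genes, Basp1, a membrane protein of growth cones, was at 1020 ± 238 CPM (SD, n = 6) in GFP+ RPE and 755 ± 196 (SD, n = 6) in central RPE, a log2 fold change of 0.36 (SE 0.23). Stmn1, which encodes a protein that destabilizes microtubules, stood at -1.29 (SE 0.58) against central RPE and -1.37 (SE 0.58) against peripheral GFP- RPE, with edgeR adjusted p values of 0.785 and 0.801. Map1a (0.44, SE 0.67) and Dclk1 (-0.62, SE 0.74), microtubule-associated protein genes, differed by less than their standard errors, and Map1a stood at 1.11 without the central library of mouse 5.

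**Figure D5:**
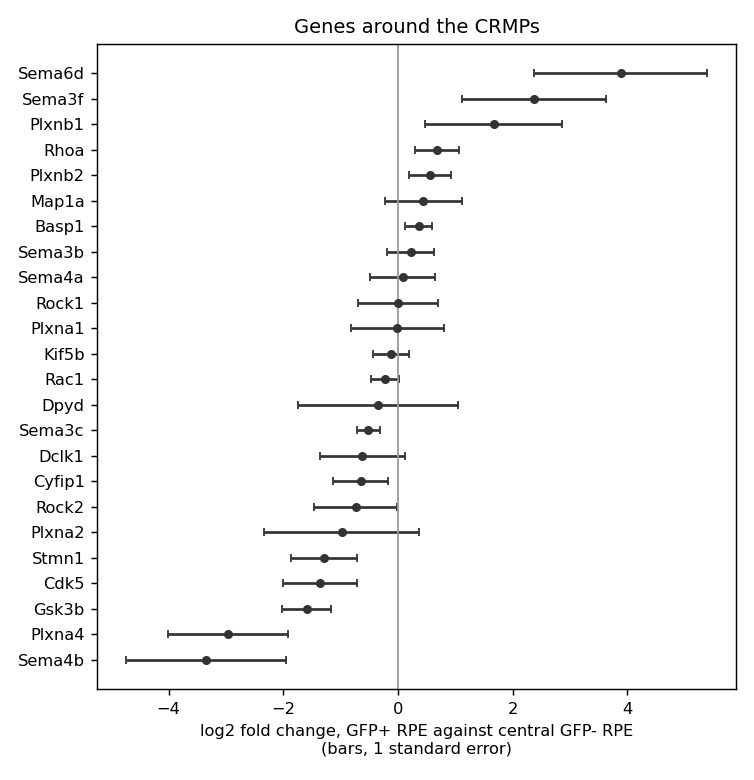
Log2 fold change of GFP+ RPE against central GFP- RPE for the 24 named and tested genes around the CRMPs. Points are estimates and bars are 1 standard error. Sema6d lies highest at 3.89 and Sema4b lowest at -3.35, which became -0.91 when mouse 5 was left out of the central group, and no gene shown passed the test.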

How the data were processed

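Counts per gene of 17 libraries (SMART-Seq mRNA LP kit, polyA RNA) were analysed. The authors deposited whole-number expected counts per gene symbol. The submitters' processing notes name fastp, Salmon and the build GRCm38.p6; tool versions, annotation and use of strand are not given in the sources used here. No molecular identifiers are described, so that floors (3 counts) cover counting error only. All 17 columns matched a sample by name, and 0 were left unused. Groups came from the labels. Nothing says that the pools of 1 mouse were prepared separately, and p-values measure the spread between these libraries.

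CPM was scaled by TMM over all libraries. Groups were compared in R (version 4.3.3) by the quasi-likelihood test of edgeR (version 4.0.16) after filterByExpr and TMM, with Benjamini-Hochberg adjustment and only the 2 groups compared. The script was tested on simulated data. DESeq2 (version 1.42.0) was an alternative, beside other scaling, no filter, all 3 groups, the mouse as block, the run of animal numbers as covariate, and leaving out each library. Figures used Python (version 3.11.15). Positions and lengths are those of GENCODE M21.

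The members and lists were chosen with earlier results of these data known. Named genes were the members, listed genes that were called, that had ranges apart with a mean count of at least 10, or that were the 4 highest of their list, and the 5 genes most like Dpysl2. Same-numbered libraries share an animal per the labels, so that the numbers pair them. Over all genes that passed the filter, their deviations from the group means had r of -0.0195 to 0.0922 over 15 pairs, 0 of them over 0.1. These r do not describe the pairing for a single gene. For Dpysl2 in GFP+ against central RPE, the SE was 0.34 with the mouse as block and 0.57 in the main fit. The result of 1 marker list is not reported here.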

Additional observations from a re-analysis of the deposited data

Results flagged for a closer look

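Dixon's criterion was applied in groups of 4 to 10 libraries to the member levels, the mitochondrial share and the number of genes at 10 or more counts. In 5 of 20 groups, all of member levels, a library lay far from the others. Chance meets this in about 1 of 20 groups of normal values. Where all libraries of a group but 1 are at 0, the criterion is met in advance, so that nothing is read from the number of flags. Dpysl2 was at 970 CPM in the central library of mouse 5, where the nearest central library was at 348. Crmp1 was at 9.35 CPM in the GFP+ library of mouse 2, at 2.41 CPM in the peripheral GFP- library of mouse 4 and at 1.04 CPM in the central library of mouse 2, with the other libraries of each group at 0. Dpysl5 was at 0.151 CPM in the GFP+ library of mouse 4, with the others at 0, a value below the floor.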

How the results depend on the processing

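The log2 fold change of Dpysl2 kept its sign under every refit of the counts. Leaving out each library gave -2.65 to -1.42 for GFP+ against central RPE, -1.41 to -0.87 against peripheral GFP- RPE and -1.38 to -0.33 for peripheral GFP- against central RPE. A replicate block for the mouse gave -2, -1.19 and -0.76. Relative to the summed receptor genes, an alternative chosen after seeing that they move with Dpysl2, the log2 differences were 0.38, 0.10 and 0.28, with SDs of 0.33 to 0.39 within groups. Small differences can follow from that choice, and no direction is read from them. The mean in peripheral GFP- RPE was 199 CPM on totals without mitochondrial genes, also chosen after seeing the data. Signs of Dpysl3 turned with the block in GFP+ against central RPE (0.55) and in peripheral GFP- against central RPE (3.13), and those of Dpysl4 did likewise (0.34 and 0.21). Leaving out single libraries gave -1.57 to 0.16 and -0.53 to 0.65 for Dpysl3 in these comparisons. By Spearman rank correlation, 1 of the 5 genes most like Dpysl2 stayed among the first 5, and 3 of 5 did without the central library of mouse 5.

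The number of all genes called depended on the fit. In GFP+ against central RPE it was 4, but 206 with DESeq2, 56 with the replicate block, 1 with the run as covariate and 8 at an adjusted p under 0.05 with no fold limit, and 1 to 3 without single libraries. In GFP+ against peripheral GFP- RPE it was 4, but 66 with DESeq2, 0 with all 3 groups in the fit, 0 with the block, 1 with the run as covariate, and 0 to 5 without single libraries. In peripheral GFP- against central RPE it was 0, but 28 with DESeq2.

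Of 1630 recomputed values for 102 results, 66 were sign changes of named genes around the CRMPs that were not called, beside those of Dpysl3 and Dpysl4 above. They fell on 23 of 72 fold changes, none of which exceeded 0.88 in size, and 52 of them came from leaving out a library. In GFP+ against central RPE, Plxna1 was 0.01 with DESeq2, 0.10 with no filter and 0.25 with the block. Rock1 was 0.04 with DESeq2, 0.03 with median-of-ratios size factors, 0.08 with no filter, 0.66 with the block and 0.00 with the run as covariate. Rock2 was 0.04 with the block, Kif5b 0.00 with no filter, and Dpyd 2.4 with the block and 0.10 with the run as covariate. With the block, Plxna1 was 0.07 in GFP+ against peripheral GFP- RPE and Cyfip1 -0.06 in peripheral GFP- against central RPE. Leaving out single libraries in GFP+ against central RPE gave -0.61 to 0.56 for Dpyd, -0.25 to 0.12 for Kif5b, -0.23 to 0.35 for Plxna1, -0.27 to 0.26 for Rock1 and -0.19 to 0.23 for Sema4a. In GFP+ against peripheral GFP- RPE it gave -0.29 to 0.10 for Kif5b, -0.30 to 0.12 for Plxna1, -0.48 to 0.18 for Plxnb1, -0.17 to 0.26 for Plxnb2, -0.44 to 0.13 for Sema4a and -0.17 to 0.98 for Sema4b. In peripheral GFP- against central RPE it gave -0.09 to 0.18 for Basp1, -0.10 to 0.46 for Cyfip1, -0.09 to 0.53 for Dclk1, -2.18 to 0.10 for Dpyd, -0.88 to 0.03 for Gsk3b, -0.17 to 0.26 for Kif5b, -0.67 to 0.54 for Map1a, -0.11 to 0.46 for Plxna1, -0.18 to 1.44 for Plxna2, -0.02 to 0.40 for Sema4a and -0.44 to 0.45 for Stmn1. The cause of these changes was not tested.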
